A study of Mus musculus with 18 samples.

Results

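The collagen gene family was examined across epididymal fat and liver of mice fed 3 diets. Members were all rows of the deposited expression table whose gene identifier carried a symbol of the form Col, number, a, number, with no filter on level, which gave 44 of 23474 genes. The table held 18 RNA sequencing libraries of male C57BL/6J mice aged 17 weeks, with 3 libraries for each tissue and diet. Diets were given for 12 weeks from 5 weeks of age. ND stands for the normal diet, HFD for the high-fat diet, and GT for HFD with an ethanol extract of green tea at 0.25% by weight. The mice were not described as carrying any engineered allele, so ND, HFD and GT libraries differ in the labels by diet alone. The labels speak of 10 mice per diet and do not say that each library is a different mouse. The p-values therefore measure the spread between these libraries, which may be in part technical.

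Collagens are extracellular matrix proteins whose chains wind in threes into a triple helix built from repeats that place glycine at regular intervals. Fibrillar collagens form the tension-bearing fibrils of connective tissue, collagen IV forms the sheet-like network of basement membranes, collagen VI forms beaded filaments between them, and fibril-associated collagens coat the surface of fibrils. In fat every adipocyte sits in its own basement membrane, and in liver the scar matrix made by activated stellate cells is rich in collagens I and III.

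The family was sorted by structure into 9 classes: 11 fibrillar chains, 6 basement membrane network chains (collagen IV), 6 beaded filament chains (collagen VI), 2 basement membrane zone chains (Col15a1 and Col18a1), 9 fibril-associated chains, 3 hexagonal network chains, 1 anchoring fibril chain, 4 transmembrane chains and 2 others. Levels are FPKM, fragments scaled to transcript length and to library size, which allow chains to be compared within a library. Differences are on the log2(FPKM + 1) scale, tested in limma over every gene of the fit, and a gene is called when its Benjamini-Hochberg adjusted p is under 0.05.

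Several member genes lie side by side in the genome, and members whose levels moved together or apart in these data are among them. Col3a1 and Col5a2 are neighbours, as are Col6a1 and Col6a2, Col6a4 to Col6a6, Col4a3 and Col4a4, Col4a5 and Col4a6, and Col9a1 and Col19a1. Col4a1 and Col4a2 are transcribed away from each other from starts that overlap. RefSeq promoter windows of build GRCm38.p6, from 250 bases before to 50 bases after the start of a gene, were matched for 35 of 44 members, with 38 windows in all. The stretches below are upstream sequence outside annotated exons of members with large changes by diet, and the stretch that the Col4a1 and Col4a2 starts share. They were searched on both strands for CCAAT, for GGGCGG and for TATAA, and capitals mark a match on either strand. In the Col3a1 stretch the 2 TATAA matches overlap, since TTATAA reads the same on both strands.
Col1a2, chr6:4505370-4505492, plus strand: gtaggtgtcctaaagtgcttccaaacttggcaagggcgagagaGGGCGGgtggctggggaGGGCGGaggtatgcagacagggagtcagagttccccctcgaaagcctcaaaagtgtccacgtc
Col3a1, chr1:45311288-45311537, plus strand: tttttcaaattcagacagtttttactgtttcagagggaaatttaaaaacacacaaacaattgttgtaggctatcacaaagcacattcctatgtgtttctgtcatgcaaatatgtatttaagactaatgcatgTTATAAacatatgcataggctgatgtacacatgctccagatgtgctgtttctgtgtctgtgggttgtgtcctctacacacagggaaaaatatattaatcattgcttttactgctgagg
Col6a3, chr1:90844002-90844221, minus strand: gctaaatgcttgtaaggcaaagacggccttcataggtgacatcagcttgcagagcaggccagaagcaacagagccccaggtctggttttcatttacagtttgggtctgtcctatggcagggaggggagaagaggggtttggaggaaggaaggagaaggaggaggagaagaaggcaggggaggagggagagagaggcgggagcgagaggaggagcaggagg
Col4a1 and Col4a2 shared start, chr8:11312805-11312826, plus strand: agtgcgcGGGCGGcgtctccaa
Windows were counted over the 250 bases before the start only. CCAAT was present there in 13 of 38 member windows (34.21%) and in 33.85% of 32851 windows of all genes, GGGCGG in 22 (57.89%) and 32.74%, and TATAA in 7 (18.42%) and 22.78%. A match is a description of letters in these windows and not a bound site.

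One fat library stood apart before any diet was compared. The library ND 1 held a summed 98068 FPKM of 10 testis marker genes and 20327 FPKM of 6 epididymis markers, and its 7 adipocyte markers summed to 4104 FPKM against 17183 to 32026 FPKM in the other 8 fat libraries. Testis markers were also raised in ND 3 (2831 FPKM) and HFD 1 (1993 FPKM), against 15.9 to 154 FPKM in the remaining 6, and epididymis markers in HFD 2 (1275 FPKM). FPKM totals were 527904 to 608819 in 8 fat libraries, 1002765 in ND 1 and 680168 to 930139 in liver, and read numbers are not known. ND 1 held the lowest fat value of 19 collagens and the highest of 16. Fat comparisons are therefore given with all 9 libraries and without ND 1, where the normal diet rests on ND 2 and ND 3. In liver, skeletal muscle markers (6 of 7 in the table) summed to 72.1 FPKM in HFD 2, 32.2 in GT 3 and 14.1 in HFD 3, against 0.263 to 3.20 in the other 6, and the albumin gene is listed at 0 in HFD 3. The 5 other hepatocyte markers summed to 13297 FPKM there, within the range of the other 8 liver libraries (8159 to 16357 FPKM).

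Fat and liver differed in the level and the order of their collagens. In fat without ND 1, 14 members reached 10 FPKM in every library, and in liver only Col18a1 did. The order of levels in fat on HFD was Col3a1 with a mean of 809 ± 90.7 FPKM (SD, n = 3), Col1a2 with 322 ± 40.4, then Col6a1 (248 ± 24.4), Col6a2 (246 ± 29.1), Col4a2 (229.6 ± 6.30) and Col4a1 (229.6 ± 21.5). The means of these last 4 differed by less than the SD of Col6a1 or Col6a2. In liver Col18a1, whose cleaved end is endostatin, led in every library at 132 to 165 FPKM. Next came Col5a3 in the ND and HFD libraries and Col27a1 in the GT libraries, with Col5a3 at 7.90 to 21.9 FPKM over all 9. The 44 members together made up 0.191% and 0.274% of the FPKM total in fat ND 2 and ND 3, 0.498% to 0.564% on HFD and 0.414% to 0.485% on GT. In liver they made up 0.0237% to 0.0315%, with no separation of the diets.

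**Figure D1:**
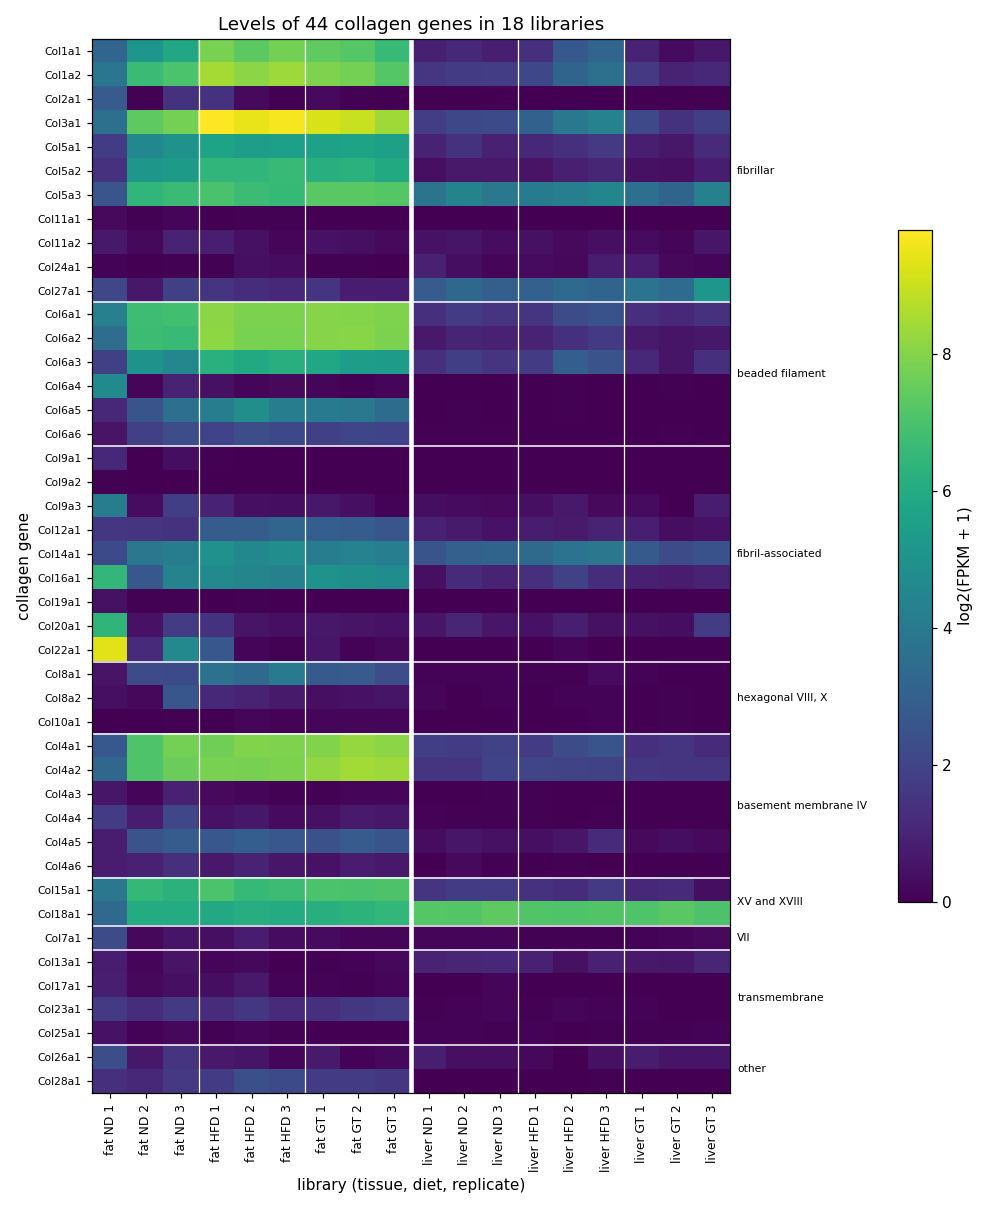
Level of each of 44 collagen genes (rows, grouped by class) in 18 libraries (columns) as log2(FPKM + 1), with fat left of the thick white line and liver right of it. Some fibrillar, beaded filament and collagen IV chains, among them Col3a1, Col6a1 and Col4a2, are high in fat other than ND 1, others of these classes are near 0, and Col18a1 is the highest chain in every liver library.

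Of 25 members tested without ND 1, 22 were higher in fat than in liver averaged over the 3 diets, where 71.4% of all genes were, and 3 were lower, where 17.1% of all genes were. Genes entered this test on reaching 1 FPKM in at least 3 libraries of either tissue. Of the members, 24 did so in fat, 16 in liver and 15 in both. For members that entered through 1 tissue only, such as Col13a1 through liver, the filter largely set the direction, so the counts do not test it. The median member difference was 3.23 against 0.87 over all genes. Col6a2 had the largest difference (6.60 ± 0.10, adjusted p = 3.2e-18), with levels of 100.02 to 280.1 FPKM in fat and 0.468 to 2.20 in liver. The 3 lower members were Col18a1 (-1.05 ± 0.07, adjusted p = 8.03e-10), Col27a1, a fibrillar chain of cartilage (-2.25 ± 0.23, adjusted p = 2.26e-07), and Col13a1, a transmembrane chain (-0.66 ± 0.09, adjusted p = 7.09e-06). Col27a1 lay at 0.564 to 2.62 FPKM in fat and 6.11 to 34.6 in liver, the highest in GT 3, and Col13a1 at 0.0235 to 0.437 and 0.352 to 1.15. Scaling every library to equal FPKM totals moved the median over all genes in this comparison from 0.87 to 1.26 with the same 25 members called.

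Of 7 fibrillar chains tested in fat without ND 1, 5 rose on the high-fat diet, and Col5a3 and Col27a1 did not pass. Col1a1, the main chain of collagen I, measured 34.8 and 57.3 FPKM in ND 2 and ND 3, 227, 159.8 and 218 in HFD 1 to 3, and 169, 149 and 97.1 in GT 1 to 3, with 8.30 in ND 1. All HFD libraries lay above all ND libraries, and the mean was 4.37 times that of ND 2 and ND 3 (log2 2.13 ± 0.30 without ND 1, adjusted p = 0.00213). With ND 1 included the difference was 2.90 ± 0.63 (adjusted p = 0.0372), and this call was lost without any single HFD or GT library (adjusted p up to 0.156). Col1a2, its partner chain, measured 102 and 128 FPKM in ND 2 and 3, 356, 278 and 332 on HFD and 242, 218 and 149.7 on GT, with 13.6 in ND 1. The 3 diets did not overlap in the order ND, GT, HFD, and the HFD mean was 2.80 times that of ND 2 and ND 3 (log2 1.48 ± 0.22, adjusted p = 0.00274). Col3a1, which forms the thin reticular fibrils, measured 167 and 214 FPKM in ND 2 and 3, 895, 715 and 818 on HFD and 595, 511 and 342 on GT, with 11.4 in ND 1. It showed the same order of diets without overlap and rose 4.25-fold on HFD (log2 2.09 ± 0.24, adjusted p = 0.00131). With ND 1 neither Col1a2 (2.48 ± 0.75, adjusted p = 0.115) nor Col3a1 (3.40 ± 0.97, adjusted p = 0.0962) passed.

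Collagen V chains, which nucleate fibrils and set their width, did not move together. Col5a2 measured 35.1 and 39.4 FPKM in ND 2 and 3, 86.9, 87.6 and 95.5 on HFD and 72.8, 76.1 and 61.0 on GT, and rose on HFD (log2 1.25 ± 0.13, adjusted p = 0.00122). Its 3 diets did not overlap. Col5a1 measured 22.8 and 31.1 FPKM, then 51.0, 43.4 and 45.3 on HFD and 47.5, 49.9 and 46.1 on GT, and rose by less (0.78 ± 0.15, adjusted p = 0.00729). Its HFD and GT libraries overlapped. Col5a3 measured 86.1 and 103 FPKM in ND 2 and 3, 125, 106 and 94.7 on HFD and 155, 155 and 149 on GT. Its HFD libraries overlapped those of ND (log2 0.20 ± 0.15, adjusted p = 0.363), while all 3 GT libraries lay above all others. The ratio of Col5a2 to Col5a3 was accordingly 0.407 and 0.384 in ND 2 and 3, 0.843 ± 0.158 on HFD and 0.457 ± 0.0414 on GT (SD, n = 3). The ratio of Col1a1 to Col1a2 was 0.342 and 0.448 in ND 2 and 3, 0.622 ± 0.0418 on HFD and 0.678 ± 0.0267 on GT, so that both high-fat groups held more Col1a1 per Col1a2 than either ND library.

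Beaded filament chains rose as well. Col6a1 measured 108 and 114 FPKM in ND 2 and 3, 276, 234 and 234 on HFD and 258, 256 and 238 on GT (HFD against ND 1.15 ± 0.13, adjusted p = 0.00122). Col6a2 measured 104 and 100.02, then 280.1, 229.7 and 229.7 and 256, 268 and 236 FPKM (1.26 ± 0.14, adjusted p = 0.00122). For both chains ND lay below the other diets and HFD and GT overlapped. Col6a3, the long chain whose cleaved end is endotrophin, a peptide studied in obese fat, measured 31.0 and 22.2 FPKM in ND 2 and 3, 74.6, 61.8 and 72.0 on HFD and 56.5, 44.1 and 40.7 on GT. It rose on HFD (1.37 ± 0.19, adjusted p = 0.00213), and its 3 diets did not overlap. The ratio of Col6a3 to Col6a1 was 0.281 ± 0.0237 on HFD and 0.187 ± 0.0274 on GT. Col6a5 measured 4.92 and 10.9, 16.2, 27.6 and 16.2 and 15.9, 14.3 and 10.1 FPKM in the 3 diets and rose on HFD (1.28 ± 0.35, adjusted p = 0.0302). Its neighbour Col6a6 ranged from 2.62 to 4.01 FPKM without ND 1, with the diets overlapping (0.06 ± 0.19, adjusted p = 0.842).

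Among collagen IV and the other basement membrane chains only Col4a2 passed on HFD. Col4a1 measured 139 and 213 FPKM in ND 2 and 3, 205, 244 and 240.0 on HFD and 249, 301 and 271 on GT, and Col4a2 136 and 186, then 228, 224 and 237 and 297, 345 and 327. HFD libraries overlapped ND for Col4a1 and lay above both ND libraries for Col4a2, and GT libraries lay above all HFD libraries for both. Against ND, HFD differed by 0.41 ± 0.20 for Col4a1 (adjusted p = 0.156) and by 0.53 ± 0.16 for Col4a2 (adjusted p = 0.0389), and the latter call was lost without ND 2, any HFD library or GT 2. Col15a1 measured 90.6 and 78.3 FPKM, then 131, 94.5 and 106 and 129.9, 127 and 132 (0.37 ± 0.15, adjusted p = 0.109). Col18a1 measured 64.4 and 65.3 FPKM, then 59.6, 68.7 and 64.0 and 71.2, 79.7 and 89.3 (-0.02 ± 0.13, adjusted p = 0.927). Col18a1 on HFD surrounded its ND values and was higher in every GT library. Col4a5, of the same network family, ranged from 4.40 to 6.56 FPKM with overlapping diets.

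Among smaller classes, Col12a1 and Col14a1, fibril-associated chains of dense connective tissue, and Col8a1, a hexagonal network chain of vessel walls, rose. Col12a1 measured 1.92, 1.83 and 1.73 FPKM in ND 1 to 3, 6.21, 6.52 and 8.23 on HFD and 6.70, 6.18 and 5.14 on GT. Its 3 ND values lay close together, ND 1 included, and it passed with all libraries (1.49 ± 0.21, adjusted p = 0.00854) and without ND 1 (1.51 ± 0.17, adjusted p = 0.00127). Col8a1 measured 0.418, 3.78 and 3.59 FPKM in ND 1 to 3, 12.1, 9.31 and 15.2 on HFD and 5.77, 5.98 and 3.92 on GT, and it too passed with all libraries (2.05 ± 0.48, adjusted p = 0.0481) and without ND 1 (1.47 ± 0.23, adjusted p = 0.00304). With all libraries the Col8a1 call was lost without any single HFD or GT library (adjusted p up to 0.216) and under all 6 other settings, and the Col12a1 call without HFD 3 (adjusted p = 0.0673) and with the compared diets alone. For Col8a1, every HFD value was above every ND and GT value. Col14a1 measured 13.6 and 16.5 FPKM in ND 2 and 3, 30.5, 22.9 and 26.7 on HFD and 16.8, 19.4 and 17.1 on GT (0.78 ± 0.16, adjusted p = 0.00834). It was highest on HFD, with GT just above ND.

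**Figure D2:**
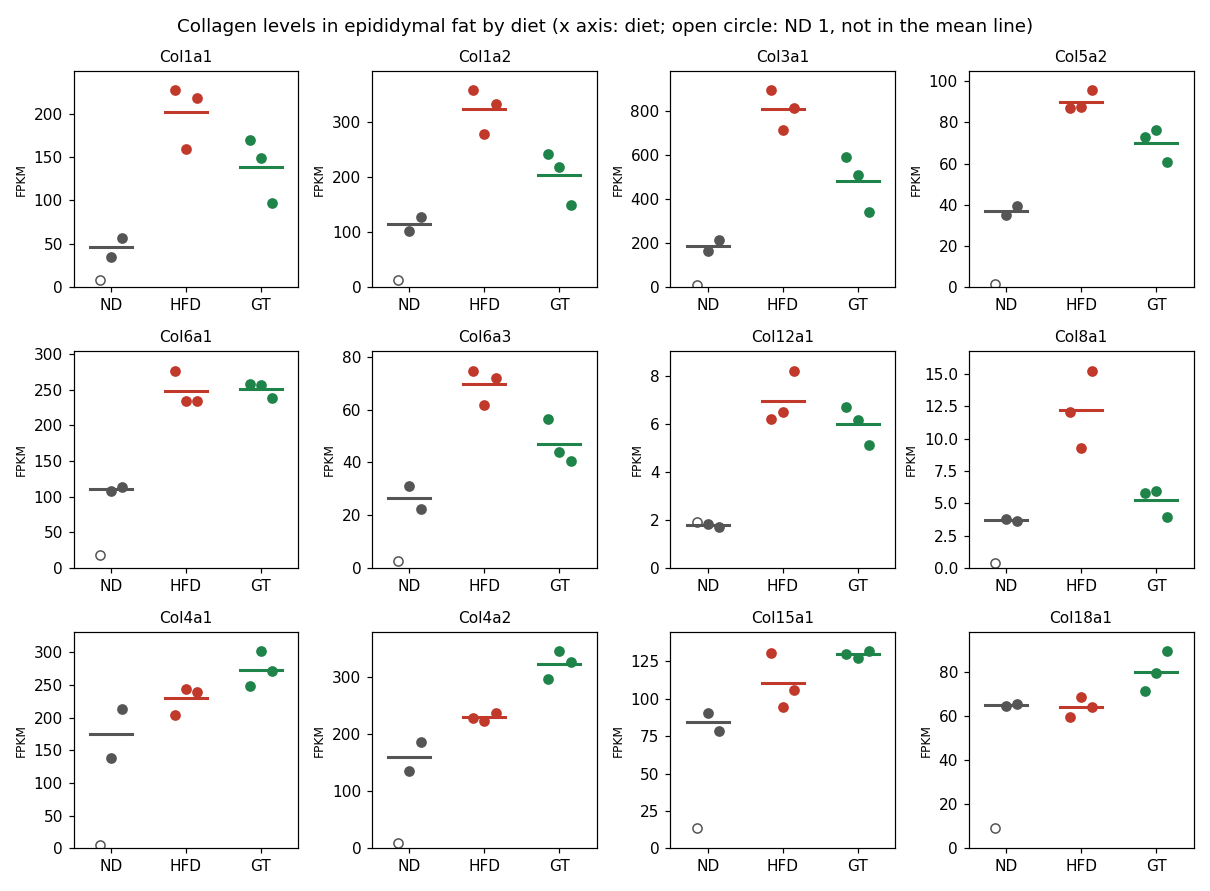
FPKM of 12 collagen chains in 9 fat libraries by diet, on axes from 0, with one point per library and lines at the mean of 3 libraries (ND: of ND 2 and ND 3, with ND 1 as the open circle). Col1a1, Col1a2, Col3a1, Col5a2, Col6a3, Col12a1 and Col8a1 have their highest means on HFD, while Col4a1, Col4a2 and Col18a1 are highest on GT.

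In counts, 13 of 24 members tested without ND 1 were higher on HFD and 0 lower, where 17.8% of all genes were higher. By class these were 5 of 7 fibrillar (Col27a1 and Col5a3 were not), 4 of 5 beaded filament, 2 of 4 fibril-associated, 1 of 1 hexagonal and 1 of 3 collagen IV chains. The median member difference was 0.78 against 0.02 over all genes. HFD libraries lay wholly above ND in 15 of 24 members and in 30% of all genes, the other 2 being Col15a1 and Col28a1 (1.12 and 2.08 FPKM, then 2.34, 4.26 and 3.57 on HFD, adjusted p = 0.0545). Of the 13 calls, 11 were kept when any 1 further library was left out, Col4a2 and Col6a5 being lost. With all 9 libraries 3 of 26 members were higher (Col1a1, Col12a1 and Col8a1), where 5.28% of all genes were. In limma 13 of 26 had an unadjusted p under 0.05, as had 2828 of 13762 genes. A fit without the 3 libraries that held most testis transcripts, ND 1, ND 3 and HFD 1, was chosen after seeing the data. In it ND 2 is the sole normal-diet library and is assumed to vary like the others, so its counts are not given.

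Markers of some other cells moved with these changes. Without ND 1, all 7 macrophage markers lay above ND in every HFD library, with sums of 429.9 to 556 FPKM on ND and 2815 to 3939 on HFD. Of 7 fibroblast markers 4 lay above and 1 (Gsn) below, and because Gsn holds most of the sum it fell from 5660 to 6727 FPKM on ND to 3576 to 3770 on HFD. Of 7 adipocyte markers 5 lay below and 1 above, with sums of 20871 to 32026 on ND and 17183 to 19582 on HFD. Of 5 mesothelium markers 4 lay below (sums of 26.7 to 40.9 FPKM on ND and 9.17 to 11.9 on HFD). None of these 4 lists had a marker at 0. Of 7 endothelium markers 0 lay above and 2 below (sums of 258 to 306 FPKM on ND and 261 to 302 on HFD). Of 8 stellate cell and pericyte markers, Lrat and Hand2 having zeros, 1 lay above and 1 below. Of 4 smooth muscle and myofibroblast markers 1 lay above and 0 below. The sums of these further lists overlapped between the diets. Over all genes, 30% lay wholly above ND on HFD, and 2597 of 12859 wholly below. In bulk tissue, fewer cells of a type and less RNA per cell cannot be told apart, and the part of these lists in the collagen changes was not tested.

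With the extract added to the high-fat diet, 1 member passed in fat. Of 24 members tested without ND 1, Col8a1 alone was called, 2.34 times lower on GT (log2 -1.08 ± 0.21, adjusted p = 0.0492), where 0.801% of all genes were lower. This call was lost without any single HFD or GT library, with adjusted p from 0.0328 to 0.231 over the single libraries left out, and it was lost with a smaller added constant and under both other scalings. In limma, 9 of the 24 members, Col8a1 among them, had an unadjusted p under 0.05, as had 2908 of 12859 genes. The other members did not pass. Their differences were -0.78 ± 0.22 for Col3a1 (adjusted p = 0.102), -0.68 ± 0.20 for Col1a2 (adjusted p = 0.11), -0.56 ± 0.26 for Col1a1 (adjusted p = 0.254), -0.56 ± 0.17 for Col6a3 (adjusted p = 0.119), -0.55 ± 0.14 for Col14a1 (adjusted p = 0.0818) and -0.36 ± 0.12 for Col5a2 (adjusted p = 0.137). On the other side were Col5a3 (0.50 ± 0.13, adjusted p = 0.0918), Col4a2 (0.49 ± 0.14, adjusted p = 0.105), Col18a1 (0.31 ± 0.12, adjusted p = 0.173), Col4a1 (0.25 ± 0.18, adjusted p = 0.429) and Col15a1 (0.24 ± 0.14, adjusted p = 0.337). Col6a1 (0.02), Col6a2 (0.05) and Col5a1 (0.04) had differences near 0, whose sign changed with single libraries or scaling.

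GT libraries lay wholly below HFD in 7 of 24 members (Col1a2, Col3a1, Col5a2, Col6a3, Col6a5, Col8a1 and Col14a1), a share near the 24.5% of all genes, and wholly above in 5 (Col4a1, Col4a2, Col5a3, Col16a1 and Col18a1), where 12.4% of all genes were. The median member difference was -0.18 against -0.12 over all genes. As shares of the summed collagen FPKM, fibrillar chains made up 54.7% ± 2.02 on HFD and 42.8% ± 5.11 on GT (SD, n = 3), and collagen IV chains 16.2% ± 1.94 and 23.9% ± 3.19. The HFD and GT ranges of both shares did not overlap. With all 9 libraries 0 of 26 members and 0% of all genes were called in limma. There 0 of 26 members had an unadjusted p under 0.05, while 467 of 13762 genes had. A limma fit of the HFD and GT libraries alone called 3 members, 2 lower and 1 higher. The share of all genes called in that fit is not reported here. Beside these values, 6 of 7 macrophage markers lay below HFD in every GT library (sum 1178 to 2593 FPKM on GT), 5 of 7 fibroblast markers lay below and 1 above, and 5 of 7 adipocyte markers lay above (sum 23994 to 27524 FPKM). Of 7 endothelium markers 2 lay above, and their sum was 307 to 355 FPKM on GT and 261 to 302 on HFD, without overlap. The part of these lists was not tested.

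Several collagens were higher in GT fat than on the normal diet. Without ND 1, 11 of 24 members were higher and 0 lower, where 7.5% of all genes were higher. These were Col1a1 (1.57 ± 0.30), Col3a1 (1.31 ± 0.24), Col5a1 (0.82 ± 0.15), Col5a2 (0.89 ± 0.13), Col5a3 (0.69 ± 0.15), Col6a1 (1.17 ± 0.13), Col6a2 (1.31 ± 0.14), Col6a3 (0.81 ± 0.19), Col12a1 (1.33 ± 0.17), Col4a2 (1.02 ± 0.16) and Col15a1 (0.62 ± 0.15), with adjusted p from 0.00413 to 0.0417. Col6a1, Col6a2 and Col12a1 were called whichever further library was left out. With a block for replicate number the 11 calls became 2, Col6a1 and Col6a2, and with the ND and GT libraries alone 3 were, Col12a1 being the third. The share of all genes called in either of these fits is not reported here. Col1a2 (0.80 ± 0.22, adjusted p = 0.0577), Col4a1 (0.66 ± 0.20, adjusted p = 0.0665) and Col18a1 (0.29 ± 0.13, adjusted p = 0.183) did not pass. With all 9 libraries Col12a1 alone passed (1.30 ± 0.21, adjusted p = 0.0455), 1 of 26 members where 0.61% of all genes were higher, and this call was lost with the block. This comparison shares its ND libraries with the HFD comparison and its GT libraries with the extract comparison, so the 3 are not independent.

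**Figure D3:**
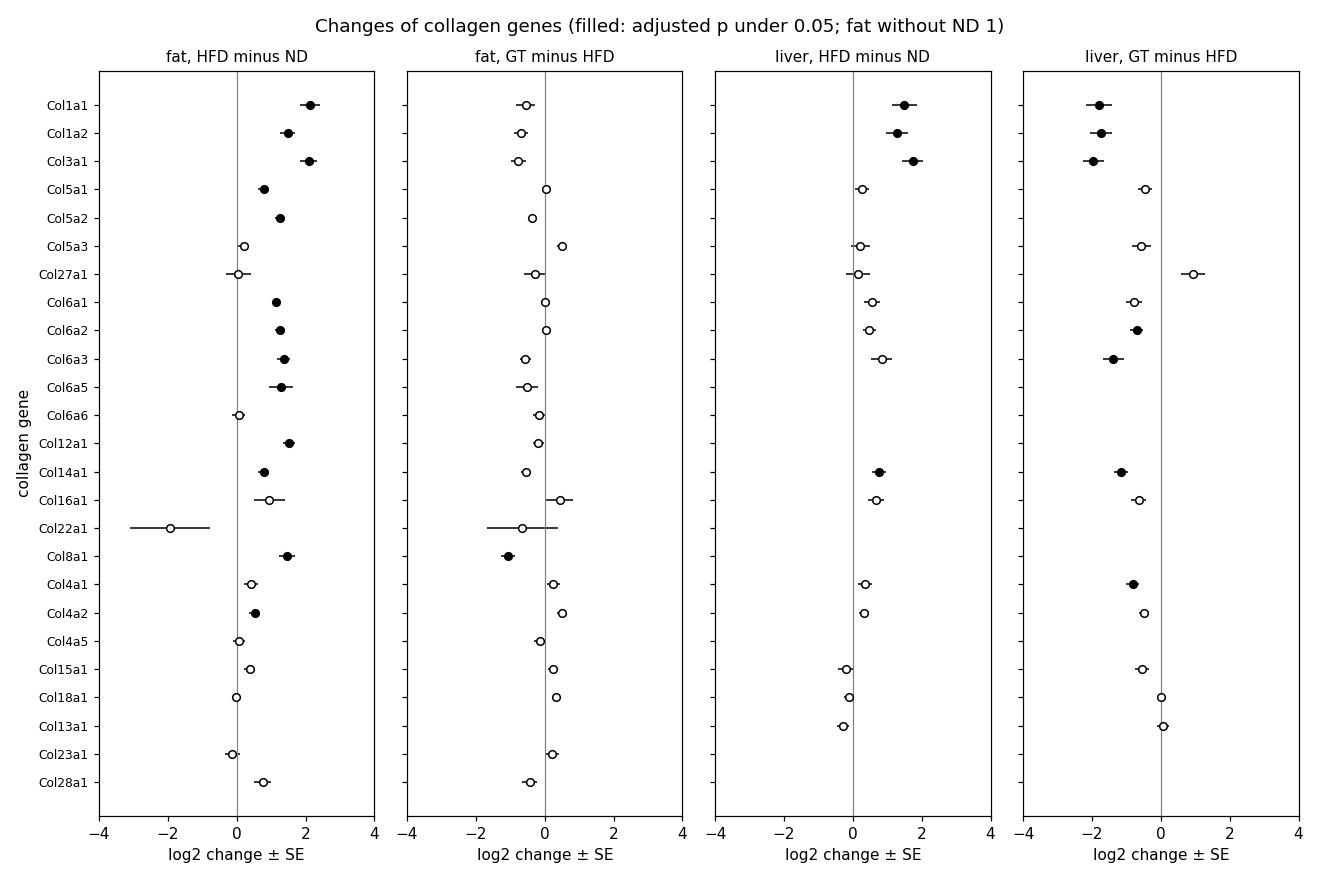
Difference in log2(FPKM + 1) with its standard error for collagen genes in fat without ND 1 (left pair of panels) and in liver (right pair), for HFD against ND and GT against HFD. Filled points passed the adjusted p of 0.05. The 13 filled points for fat on HFD lie right of 0, and the 7 filled points for liver on GT lie left of it.

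In liver, collagens I and III and Col14a1 were higher on HFD and lower with the extract, from low levels. Col1a1 measured 0.797, 1.18 and 0.778 FPKM on ND, 1.60, 5.50 and 8.27 on HFD and 0.946, 0.226 and 0.553 on GT. Every HFD library was above every other library, and HFD 1 was close to the highest ND value. The difference was 1.50 ± 0.37 for HFD against ND (adjusted p = 0.0206) and -1.80 ± 0.37 for GT against HFD (adjusted p = 0.0264). Col1a2 measured 1.91, 2.30 and 2.40 FPKM on ND, 3.33, 7.87 and 11.5 on HFD and 2.12, 0.944 and 1.13 on GT, with HFD libraries again above the rest (1.29 ± 0.32, adjusted p = 0.0214, and -1.74 ± 0.32, adjusted p = 0.0183). Col3a1 measured 2.41, 3.39 and 3.59 FPKM on ND, 7.15, 14.3 and 19.6 on HFD and 3.53, 1.72 and 2.51 on GT. Its lowest HFD value, HFD 1, was above all 6 other libraries, and its differences were 1.74 ± 0.31 (adjusted p = 0.00602) and -1.96 ± 0.31 (adjusted p = 0.00968). Col14a1 measured 4.83, 7.08 and 7.98, 9.54, 12.2 and 13.6 and 5.84, 3.92 and 4.49 FPKM in the 3 diets (0.75 ± 0.20, adjusted p = 0.0279, and -1.15 ± 0.20, adjusted p = 0.0149), highest in each HFD library.

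Col6a3 and Col4a1 fell with the extract without having passed on HFD. Col6a3 measured 1.47, 2.56 and 1.87 FPKM on ND, 2.32, 6.58 and 4.66 on HFD and 1.14, 0.475 and 1.56 on GT (HFD against ND 0.83 ± 0.29, adjusted p = 0.0713; GT against HFD -1.38 ± 0.29, adjusted p = 0.0288). HFD 1 lay within the ND range, and all GT values were below HFD. Col4a1 measured 2.54, 2.31 and 2.76, 2.27, 3.72 and 4.91 and 1.55, 1.79 and 1.31 FPKM (0.35 ± 0.20, adjusted p = 0.231, and -0.82 ± 0.20, adjusted p = 0.0429). Col6a2, at 0.468 to 2.20 FPKM, also fell (-0.71 ± 0.18, adjusted p = 0.0475), while Col6a1 (-0.78 ± 0.23, adjusted p = 0.0741) and Col4a2 (-0.49 ± 0.15, adjusted p = 0.0874) did not pass. Col15a1 (-0.55 ± 0.21, adjusted p = 0.146) and Col5a1 (-0.47 ± 0.20, adjusted p = 0.191) did not pass either. Col6a2 reached the filter of 1 FPKM only in ND 2, HFD 2 and HFD 3, and Col1a1 only in ND 2 and the HFD libraries. Neither reached it in a GT library, so for GT against HFD both entered the test through the diet where they were high. Col18a1, the leading liver chain, measured 147, 144 and 165 FPKM on ND, 141, 137 and 142 on HFD and 138, 156 and 132 on GT, with differences of -0.12 ± 0.14 and 0.02 ± 0.14. Col5a2 was under the filter in liver, at 0.316 to 1.07 FPKM.

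**Figure D4:**
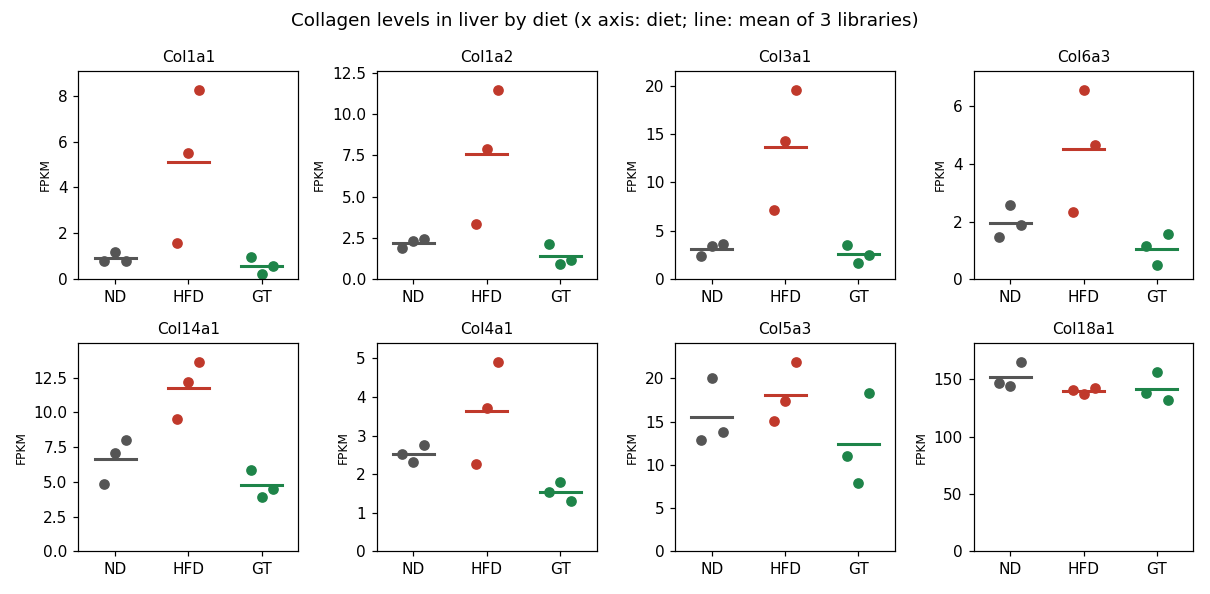
FPKM of 8 collagen chains in 9 liver libraries by diet, on axes from 0, with one point per library and lines at the mean of 3 libraries. Col1a1, Col1a2, Col3a1 and Col14a1 are highest in the 3 HFD libraries, HFD 1 being the lowest of them, while Col18a1 lies between 132 and 165 FPKM throughout.

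In counts, 4 of 16 liver members were higher on HFD and 0 lower, where 11.9% of all genes were higher, and 5 of 16 had every HFD library above ND (Col16a1 being the fifth), where 23.6% of all genes had. On the other side, 2 of 16 (Col13a1 and Col18a1) had every HFD library below ND, as had 2272 of 10670 genes. The median member difference was 0.42 against -0.02 over all genes. With the extract 7 of 16 were lower than on HFD, where 4.22% of all genes were, and 11 of 16 had every GT library below HFD, where 18.2% of all genes had. Both counts include Col1a1 and Col6a2, which were under the filter in every GT library. The median was -0.68 against -0.04. Col27a1 went the other way: 1 of 16 with every GT library above HFD, as had 917 of 10670 genes. Its means were 18.9 FPKM on GT and 8.07 on HFD, with GT 3 highest at 34.6, and it was not called. Against ND, 0 of 16 members were called on GT in limma, where 2.6% of all genes were. An unadjusted p under 0.05 in limma was found for 3 of 16, a share near that of all genes (1765 of 10670). Col1a1 differed by -0.30 ± 0.37, Col1a2 by -0.45 ± 0.32, Col3a1 by -0.22 ± 0.31, Col4a1 by -0.47 ± 0.20, Col6a3 by -0.55 ± 0.29, Col15a1 by -0.76 ± 0.21 (adjusted p = 0.0907) and Col18a1 by -0.10 ± 0.14.

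These liver counts rest on single libraries. Without HFD 2, 6 of the 7 extract calls were lost, and Col6a2 was under the filter and could not be tested. Without HFD 2 and GT 3, the libraries with most skeletal muscle transcripts, 0 members were called for the extract and 1 for HFD, Col3a1. Col6a2 was again not tested there, and this setting was chosen after seeing the data. Col3a1 was the only one of the 4 HFD calls kept whichever library was left out, and 0 of the 7 extract calls were, the adjusted p of Col3a1 in the latter running from 0.00175 to 0.0609. Both comparisons use the same 3 HFD libraries, in which Col1a1, Col1a2 and Col3a1 had their highest values in HFD 3, where the albumin gene is listed at 0. Of 7 fibroblast markers 1 lay above ND on HFD and 5 lay below HFD on GT (sums of 77.0 to 101 FPKM on ND, 90.6 to 139 on HFD and 45.4 to 68.4 on GT, Pi16 or Cd34 being at 0 in some libraries). Of 8 stellate cell and pericyte markers 2 lay above and 1 below on HFD, and 2 lay below HFD on GT (sums of 21.8 to 28.4, 24.5 to 29.8 and 12.2 to 18.9 FPKM). Of this list Lrat was at 0 in all 18 libraries and Cspg4 in 8 of 9 liver libraries. Of 7 macrophage markers 4 lay below HFD on GT. The 4 smooth muscle and myofibroblast markers summed to 2.04 to 3.93 FPKM on ND, 4.41 to 5.94 on HFD and 1.83 to 2.12 on GT, so that HFD lay above both other diets, with 1 marker above ND on HFD and 2 below HFD on GT, and Cnn1 at 0 in some libraries. The adipocyte list summed to 109 to 143, 172 to 217 and 74.4 to 165.6 FPKM, again highest on HFD, with 2 of 7 markers above ND and 1 below, and 1 below HFD on GT, and Adipoq, Plin1 and Lep at 0 in some libraries. Of 7 endothelium markers 3 lay below ND on HFD (sums of 24.4 to 28.5 and 17.8 to 21.5 FPKM). The part of these lists and of the muscle transcripts in the collagen values was not tested.

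Whether a diet effect differed between the tissues was tested on 15 members kept in both. With all libraries 0 differed for HFD against ND in limma, where 8.53% of all genes did. An unadjusted p under 0.05 was found in limma for 1 of 15, and for 2780 of 10042 genes. For GT against HFD 0 differed, where 0.00996% of all genes did. There 0 of 15 had an unadjusted p under 0.05 in limma, while 638 of 10042 genes had. Without ND 1, Col6a2 rose more in fat on HFD (0.78 ± 0.24, adjusted p = 0.0288), 1 of 15 where 11.9% of all genes were on this side. For the extract, Col4a1 (1.08 ± 0.28, adjusted p = 0.0403) and Col4a2 (0.98 ± 0.21, adjusted p = 0.0181) differed, 2 of 15 where 2.78% of all genes were on this side: their GT values lay above HFD in fat and below HFD in liver. In this limma fit 13 of 15 members had an unadjusted p under 0.05, as had 2255 of 9957 genes. The median member difference was 0.82 against -0.05 over all genes, so the 2 calls do not set collagen IV apart from the other members. Col1a1 (1.24 ± 0.51, adjusted p = 0.158), Col1a2 (1.05 ± 0.42, adjusted p = 0.148) and Col3a1 (1.19 ± 0.40, adjusted p = 0.101) had differences of like size that did not pass. With equal FPKM totals neither collagen IV chain passed.

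Genes that build, bind and induce collagen were taken from lists compiled from general knowledge. Of 28 synthesis and processing genes tested in fat without ND 1, 16 were higher on HFD and 0 lower, with a list median of 0.56. The 4 of smallest p were Pcolce2, an enhancer of procollagen cleavage (1.72 ± 0.15), Colgalt1, which adds galactose to hydroxylysine (1.57 ± 0.18), Serpinh1, the collagen chaperone HSP47 (1.03 ± 0.13), and Loxl1, a crosslinking oxidase (1.37 ± 0.22). Of 8 receptors and uptake genes 3 were higher: Mrc2, which takes up collagen fragments (1.99 ± 0.23), Lair1, an inhibitory collagen receptor of leukocytes (3.18 ± 0.39), and Itgb1, the shared integrin chain (0.49 ± 0.14). Of 20 profibrotic signalling genes 6 were higher, led by Tgfb1 (2.34 ± 0.27), Pdgfrb (0.90 ± 0.13) and Tgfbr2 (0.67 ± 0.12), and 1 was lower, the co-receptor Tgfbr3 (-0.87 ± 0.16). The share of all genes that were higher was 17.8%, as above, and 9.62% were lower.

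For the extract in fat without ND 1, Loxl2 (-0.68 ± 0.12) and Plod2, which hydroxylates lysine for crosslinks (-0.75 ± 0.14), were lower, 2 of 28, and Pdgfra (-0.85 ± 0.11), also a member of the fibroblast list, was the 1 of 20 signalling genes that was lower, where 0.801% of all genes were. Of the 8 receptor genes 0 were called in limma, the smallest p being that of Lair1 (-1.57 ± 0.35). With all 9 fat libraries 1, 2 and 2 genes of the 3 lists were higher on HFD, where 5.28% of all genes were, and 0 for the extract. In liver on HFD, Serpinh1 (1.27 ± 0.23) and Pcolce (1.11 ± 0.28) were higher, 2 of 16 synthesis genes, a share near the 11.9% of all genes. Of 13 signalling genes 1 was higher and 2 were lower, Smad4 (-0.71 ± 0.15) and Skil (-0.74 ± 0.19), where 6.67% of all genes were lower. With the extract Serpinh1 (-1.15 ± 0.23) and Crtap, a part of the prolyl hydroxylase complex (-1.11 ± 0.27), were lower, 2 of 16, as were Tgfb1 (-0.82 ± 0.19) and Pdgfrb (-0.71 ± 0.16), 2 of 13, where 4.22% of all genes were lower. Pdgfrb is also a stellate cell and pericyte marker here. Of 3 receptor genes tested in liver 0 were called in limma on either comparison.

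A set of chains was highest in fat ND 1, the library with testis transcripts. Col22a1, a chain of tissue junctions, measured 667, 1.25 and 23.2 FPKM in ND 1 to 3, 5.25, 0.125 and 0.0281 on HFD and 0.504, 0.0667 and 0.147 on GT. The 3 libraries highest in testis markers (ND 1, ND 3 and HFD 1) were also the 3 highest for Col22a1, in the same order. Col20a1 measured 85.1, 0.385 and 2.36 FPKM in ND 1 to 3 and 1.68, 0.42 and 0.327 on HFD, and Col2a1, the cartilage chain, 6.13, 0.0328 and 1.74 and 1.63, 0.195 and 0. Col9a3 measured 16.6, 0.245 and 2.52 FPKM and Col6a4 25.2, 0.0872 and 0.923 in ND 1 to 3, and in the 6 other fat libraries Col9a3 did not exceed 0.928 and Col6a4 0.348. Col16a1 measured 90.0, 5.28 and 20.1 FPKM in ND 1 to 3, 24.6, 20.8 and 18.8 on HFD and 32.2, 28.8 and 26.0 on GT. It was higher in ND 3 than in ND 2 and highest on HFD in HFD 1, the testis-marked libraries, and every GT library was above every HFD library. Col26a1 (4.13 FPKM), Col7a1, the anchoring fibril chain (3.89), and Col9a1 (1.16) were also highest in ND 1 among fat libraries. The source of these transcripts within the sample was not tested.

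**Figure D5:**
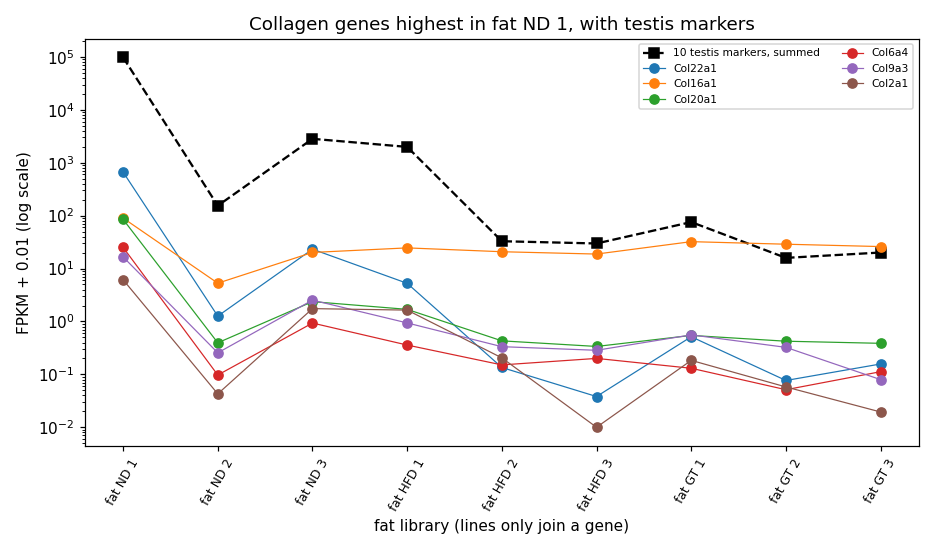
FPKM + 0.01 of 6 collagen genes in the 9 fat libraries on a log axis, with the summed FPKM of 10 testis markers as black squares. ND 1 is highest for all 6 genes and for the testis markers, and Col22a1, Col20a1 and Col2a1 are next highest in ND 3 and HFD 1.

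The remaining members were low. Col23a1, a transmembrane chain, ranged from 1.33 to 2.36 FPKM in fat without ND 1 and did not change on HFD by a passing amount (-0.13 ± 0.22, adjusted p = 0.682). Col8a2 reached 5.15 FPKM in fat ND 3 and at most 1.16 in the others, and Col4a4 reached 3.30 in ND 3 and 2.26 in ND 1. Col4a6 reached 1.59 FPKM in ND 3, and Col4a3 0.877. A group of 9 members was under 1 FPKM in all 18 libraries: Col4a3, Col9a2, Col10a1, Col11a1, Col11a2, Col17a1, Col19a1, Col24a1 and Col25a1. The highest values among them were 0.971 FPKM for Col11a2 in fat ND 3 and 0.853 for Col24a1 in liver ND 1. Col17a1 reached 0.755 FPKM, Col25a1 0.404, Col19a1 0.372, Col11a1 0.189 and Col9a2 0.0363, each in fat ND 1, and Col10a1 0.13 in fat GT 2. Of the 44 members, 26 passed the filter on low values in fat with all libraries, 24 without ND 1 and 16 in liver, and counts of called members refer to these only.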

How the data were processed

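The authors deposited FPKM per gene for 18 libraries, used as deposited. The submitters' processing notes name Cufflinks 2.1.1, STAR 2.4.0 and CASAVA 1.8.2, per the labels. The genome build and the handling of strand are not given in the sources used here. Reads shared by the overlapping starts of Col4a1 and Col4a2 cannot be assigned. Of 23474 gene identifiers 22671 matched a symbol in the reference annotation and 803 did not. No pair of libraries held identical values. Read numbers are unknown, so no counting intervals are given.

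Genes with at least 1 FPKM in at least 3 libraries of a fit were tested as log2(FPKM + 1), a scale that understates changes of low genes. Limma 3.58.1 (R 4.3.3, trend and robust) fitted a mean per diet in each tissue, and Benjamini-Hochberg adjustment ran over all genes of the fit, at 0.05. Tissue differences were contrasts over both tissues, on genes kept in both (adipose minus liver: in either). The code was tested on simulated data. Same-numbered fat ND and GT libraries deviated together in every pair (correlations 0.258, 0.124 and 0.189), so the blocked count stands beside that comparison, although the labels do not say what a number marks. Pairs of unlike number ran from -0.252 to 0.118, and the highest, ND 2 with GT 3, was near the 0.124 of ND 2 with GT 2. Deviations were taken from diet means that included ND 1, so an effect of replicate number is not established. Fat fits were made with all 9 libraries and without ND 1. Tables used Python 3.11.15, pandas 2.3.3 and matplotlib 3.10.9.

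Every member is named with a level. Of the pathway lists, up to 4 genes of a list and comparison with the smallest p were open to naming. Settings repeated were an added 0.1, no filter, equal FPKM totals, quantile scaling, a replicate block, the compared diets alone, and each library left out. The members, classes and lists were chosen with earlier results of these data known. Promoter windows came from RefSeq, build GRCm38.p6. Protein sequences were not analysed here. The name of 1 signalling gene is not reported here.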

Additional observations from a re-analysis of the deposited data

Results flagged for a closer look

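Col6a2 differed between tissues in its response to the high-fat diet: without fat ND 1, the rise on HFD against ND was larger in fat than in liver by 0.78 on the log2(FPKM + 1) scale, by a test of the difference itself. Of 17 fits that left out a further library it was called in 9, was lost in 5 (fat ND 2, ND 3 and HFD 1, liver ND 3 and HFD 1; adjusted p from 0.0223 to 0.0665 over these 14 in limma), and could not be tested in 3 (liver ND 2, HFD 2 and HFD 3), where the gene was under the filter. It was not made with ND 1 included.

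Col4a1 and Col4a2 differed between tissues in their response to the extract. Without fat ND 1, the difference of GT against HFD was higher in fat than in liver by 1.08 for Col4a1 and by 0.98 for Col4a2. In that limma fit 13 of 15 members had an unadjusted p under 0.05, as had 2255 of 9957 genes. The Col4a1 call was lost in 11 of 17 fits that left out a further library, with adjusted p from 0.0129 to 0.106, and the Col4a2 call in 3 of 17 (fat HFD 2, HFD 3 and GT 2), with adjusted p from 0.0103 to 0.0571.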

How the results depend on the processing

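Counts of collagens called moved as follows, with those under the main settings first. The share of all genes called under each other setting is not reported here, so these counts cannot be set against it. In fat with all libraries, HFD against ND (3) became 1 with no filter, equal FPKM totals or a replicate block, and 0 with the compared diets alone. GT against HFD (0) became 3 with the compared diets alone. GT against ND (1) became 0 with no filter, equal totals, quantile scaling, the block or the compared diets alone. Counts without the 3 testis-marked libraries are not given, since ND 2 is then the sole normal-diet library. Without ND 1, GT against HFD (1) became 0 with an added 0.1, no filter, equal totals, quantile scaling or the block, and 3 with the compared diets alone, and GT against ND (11) became 2 with the block and 3 with the compared diets alone. In liver, GT against HFD (7) became 3 with no filter, 2 with the compared diets alone and 0 without HFD 2 and GT 3, and HFD against ND (4) became 1 without those 2 libraries. The tissue difference of HFD against ND (0) became 2 with no filter, and without ND 1 (1) it became 0 with an added 0.1 or the block, 6 with no filter and 2 with equal totals. That of GT against HFD without ND 1 (2) became 0 with equal totals and 1 with quantile scaling or the block.

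Leaving out 1 library at a time gave 0 to 13 for HFD against ND in fat, 0 to 1 for GT against HFD and 0 to 11 for GT against ND. Without ND 1 the ranges were 11 to 16, 0 to 3 and 3 to 11, and a lone ND library was assumed to vary like the others. In liver they were 1 to 8, 0 to 8 and 0 to 0. Tissue differences gave 0 to 2 for HFD against ND with and without ND 1, and 0 to 2 and 0 to 7 for GT against HFD. Fat minus liver gave 24 to 26, and 24 to 25 without ND 1.

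No called member changed sign. Among uncalled values, Col6a1 for GT against HFD in fat became -0.018 with equal totals, with and without ND 1. Leaving out 1 library gave -0.020 to 0.099 for it, -0.0061 to 0.11 for Col5a1 and -0.0023 to 0.14 for Col6a2, again with and without ND 1. Col18a1 for HFD against ND in fat ranged from -0.019 to 1.33 as 1 library was left out, the lowest without ND 1. Without ND 1 it ranged from -0.070 to 0.031, and it was 0.066 with equal totals and 0.046 with the replicate block. Col18a1 for GT against HFD in liver ranged from -0.056 to 0.067.

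Apart from fat ND and GT, same-numbered libraries did not correlate above 0.1 in every pair of any comparison. The correlations ran from -0.0692 to 0.643 in fat and from -0.301 to 0.418 in liver, and there the block is a description only. Fat ND and HFD gave 0.643, 0.483 and 0.0948, all above 0, while ND 2 with HFD 3, of unlike number, gave 0.66. Without ND 1, the block ended 2 of the 13 calls for HFD against ND in fat, Col4a2 and Col6a5. Equal totals moved the median over all genes for HFD against ND from 0.13 to 0.41 in fat and from -0.02 to -0.20 in liver. Without read numbers, the precision of values near the filter of 1 FPKM is unknown, which touches most liver collagens.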
